A study of Rattus norvegicus with 8 samples.

Results

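Heterotrimeric G-protein subunits and the RGS proteins (regulators of G-protein signalling) were followed in medial thalamus taken from male Sprague-Dawley rats, awake during conditioning by tracheal occlusion. Genes were taken by name alone from the array: every Rgs gene with a number, every Gng gene with a number, Gnb1 to Gnb5, and 15 alpha subunit names that the selection listed. These names matched 45 genes with 61 probes, and 42 of the genes, with 57 probes, stood well above background on 4 or more of the 8 arrays. The whole table held 27152 such probes of 41012, which covered 12007 named genes.

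The occlusion group was 4 rats whose trachea was closed repeatedly for 3 to 10 breaths, each closure followed by about 30 s without it. The control group was 4 rats with the surgery and sessions but no occlusions. Both groups had daily sessions for 10 days and were killed by anaesthetic overdose within 10 min of the last one. Each Agilent whole-rat array received Cy3-labelled material from 1 µg of total RNA. Strain and sex were the same in both groups, and ages were not given in the sources used here. The dissected tissue was whole medial thalamus, so that in every result fewer cells of a type and less RNA per cell cannot be told apart.

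A G protein-coupled receptor, once bound by its ligand, makes the alpha subunit of its G protein exchange GDP for GTP, and alpha then parts from the beta and gamma pair. Gs alpha raises cyclic AMP, Gi and Go alpha lower it and free the beta-gamma pair that opens GIRK potassium channels, and Gq alpha drives phospholipase C. RGS proteins speed the hydrolysis of GTP by alpha and so end the signal. The R4 subfamily (such as Rgs4, Rgs8 and Rgs16) consists mostly of small proteins and acts mainly on Gi, Go and Gq. The R7 subfamily (Rgs6, Rgs7, Rgs9 and Rgs11) works bound to Gnb5. Transcripts of Rgs4, Rgs8 and Rgs16 are known from thalamic nuclei.

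The 60-base array probes of 8 genes are shown because the results below turn on them, or because they show how far probes of related subunits resemble each other. They are written 5′ to 3′, and the capitals mark the longest stretch that each shares with a probe of any other member gene. Coordinates are those of the array design on rat build rn3, and the exon or UTR under each probe was not given in the sources used here.
Gnao: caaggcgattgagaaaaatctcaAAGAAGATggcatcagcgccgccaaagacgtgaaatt
Rgs3: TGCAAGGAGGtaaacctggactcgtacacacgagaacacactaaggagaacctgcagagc
Rgs4: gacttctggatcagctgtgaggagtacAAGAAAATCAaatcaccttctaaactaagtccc
Rgs16: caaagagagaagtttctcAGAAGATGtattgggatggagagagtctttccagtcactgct
Gng3: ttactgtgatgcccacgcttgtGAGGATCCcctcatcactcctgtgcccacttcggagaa
Gng4: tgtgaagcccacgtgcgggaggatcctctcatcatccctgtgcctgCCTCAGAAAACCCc
Gng10: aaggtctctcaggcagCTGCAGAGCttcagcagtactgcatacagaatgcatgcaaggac
Gnb4: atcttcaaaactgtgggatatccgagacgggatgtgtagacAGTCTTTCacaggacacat
Over all 1574 pairs of probes from different member genes, the longest shared stretch was 13 bases, between Gng4 and Gng12. The most alike pair in full length was Gng3 and Gng4, with 43 of 60 bases identical without gaps. No pair shared 15 bases or more. The probes lay at chr19:11627680-11627739 for Gnao, chr13:85550968-85551027 for Rgs4, chr1:211666778-211666837 for Gng3, chr17:66546306-66546365 for Gng4 and chr2:118743912-118743971 for Gnb4. The Rgs3, Rgs16 and Gng10 probes were split over longer genomic stretches, chr5:79712237-79713254, chr13:68822446-68823167 and chr5:77088563-77092316, so that their bases are not contiguous in the genome.

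The 75th percentile of the processed intensity, used to scale each array, was 1439 to 2216, and 65.0% to 71.6% of probes were well above background. Pearson's r between arrays was 0.955 to 0.987 over probes. Each slide held 2 arrays of each group: slide 1 held occlusion 1 and 3 and control 1 and 4, and slide 2 held the other 4. All levels below are scaled log2 signals, which means the log2 processed intensity minus that array's 75th percentile, and all differences are occlusion minus control on that scale. A level can be set against the same probe on another array, but not against another probe.

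Across the 42 genes, none passed limma's test after Benjamini-Hochberg adjustment over all 27152 probes, and none of the 12007 genes did (0%). The smallest adjusted p among the members was 0.403, which was also the smallest over all probes. Of the members, 22 were higher and 20 lower on the occlusion arrays, with a median difference of 0.09 against 0.02 over all genes, where 53% were higher. Without the saturated Gnb1 probe, which is among the higher ones, the counts were 21 and 20. At an unadjusted limma p under 0.05, 8 members were higher (19.0%) and 2 were lower (4.76%), beside 5.91% and 4.97% of all genes. In 4 members every occlusion array was above every control array (Gnao, Rgs3, Rgs4 and Rgs17, 9.52%), and in 2 every occlusion array was below (Gnai3 and Gng10, 4.76%), beside 3.82% and 3.21% of all genes. Without control 1 and 2, or without control 2 and 3, the 8 higher genes at an unadjusted limma p under 0.05 became 3, beside 2.5% and 1.67% of all genes under these settings. Control 2 and 3 are the only control arrays of slide 2, so that values without both, here and below, cannot tell group from slide. Differences ranged from -0.99 for Gna14 to 1.42 for Rgs16, whose probe was not well above background on 1 control array. With the normexp background correction Rgs16 differed by 0.72, less than Rgs3 (1.11) and Rgs4 (1.09).

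**Figure D1:**
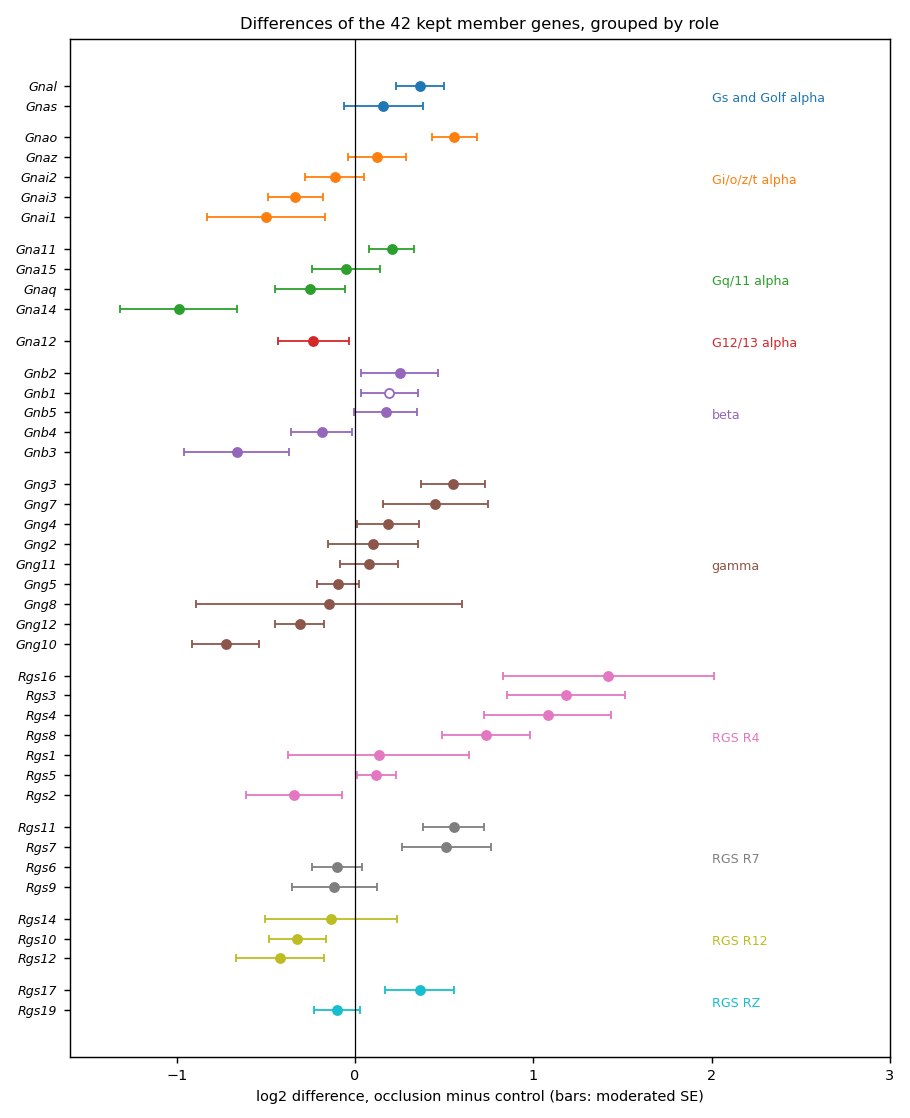
The x axis is the log2 difference, occlusion minus control, for the brightest probe of each of the 42 genes, and the y axis lists genes by role. Bars are the moderated SE from 8 arrays (5 for Gnb2), and the open circle marks Gnb1, whose probe was saturated on every array. The R4 RGS genes reach from -0.34 to 1.42, and all 3 R12 RGS genes lie below 0, though Rgs14 is at 0.11 without control 3.

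Of the 12 alpha subunit genes measured, 5 were higher and 7 lower on the occlusion arrays, with both directions among the Gi, Go and Gz genes and among the Gq genes. Gnao, the Go alpha subunit that is abundant in neurons, was higher on both of its probes. The brighter Gnao probe read 2.99, 2.81, 3.07 and 2.91 on occlusion arrays 1 to 4 and 2.58, 2.23, 2.22 and 2.52 on control arrays 1 to 4. Every occlusion array lay above every control array, and within each group the arrays spread over less than the gap between the group means. The difference was 0.56 (SE 0.12, limma unadjusted p = 0.00191, adjusted p = 0.403), a 1.47-fold higher signal, and it was 0.48 within slide 1 and 0.63 within slide 2. The other probe, whose sequence is shown above, read 0.75, 0.81, 1.05 and 0.62 against 0.43, 0.13, 0.14 and 0.45, again without overlap, and differed by 0.52 (SE 0.14).

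Gnai3 read 1.14, 1.61, 1.57 and 1.04 on the occlusion arrays and 1.64, 1.68, 1.73 and 1.64 on the control arrays. The control arrays lay close together, and occlusion 1 and 4 were far below them, while occlusion 2 and 3 were just below. The difference was -0.33 (SE 0.15, limma adjusted p = 0.459). Gnai1 read -1.64, -1.88, -2.37 and -1.19 against -1.65, -1.52, -0.43 and -1.49. Control 3 stood above the other 7 arrays, and the groups overlapped. The difference of -0.50 (SE 0.33) became -0.22 without control 3. Gnai2 differed by -0.11 (SE 0.17), which turned to 0.01 without occlusion 1, and Gnaz, the alpha subunit of Gz, by 0.12 (SE 0.16).

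Gnal encodes Golf alpha, which couples dopamine and adenosine receptors to adenylyl cyclase in the striatum, and its brightest probe read 1.67, 1.72, 1.50 and 1.97 against 1.29, 1.19, 1.55 and 1.37. Only occlusion 3 fell within the control range. The difference was 0.36 (SE 0.13, limma adjusted p = 0.407), and the other Gnal probes gave 0.23 (SE 0.17) and 0.20 (SE 0.21). Gnas, the general Gs alpha, was read from a probe printed 10 times on each array. Its values were 3.77, 3.64, 4.57 and 3.98 against 3.70, 3.76, 3.67 and 4.20, with occlusion 3 the highest and the groups overlapping. The difference of 0.16 (SE 0.22) became -0.04 without occlusion 3.

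Among the Gq family, Gna14 was the lowest member relative to control. It read -3.96, -3.11, -2.40 and -2.95 on the occlusion arrays and -1.92, -2.02, -2.67 and -1.85 on the control arrays. Occlusion 1 was the lowest array, control 3 fell among the occlusion arrays, and the groups overlapped. The difference was -0.99 (SE 0.33, limma unadjusted p = 0.016, adjusted p = 0.403), with -1.30 within slide 1 and -0.69 within slide 2. The second Gna14 probe was at background on all arrays. Gnaq, the widely expressed member of the family, read -3.88, -3.45, -3.64 and -3.51 against -3.48, -3.83, -2.94 and -3.22. Its groups overlapped, and the difference of -0.25 (SE 0.20) became -0.11 without control 3 and -0.41 without control 2. Gna11 and Gna15 differed by 0.21 (SE 0.13) and -0.05 (SE 0.19), and Gna12 by -0.23 (SE 0.20). Gna13 and Gnat1, the rod transducin, were at background on all arrays.

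**Figure D2:**
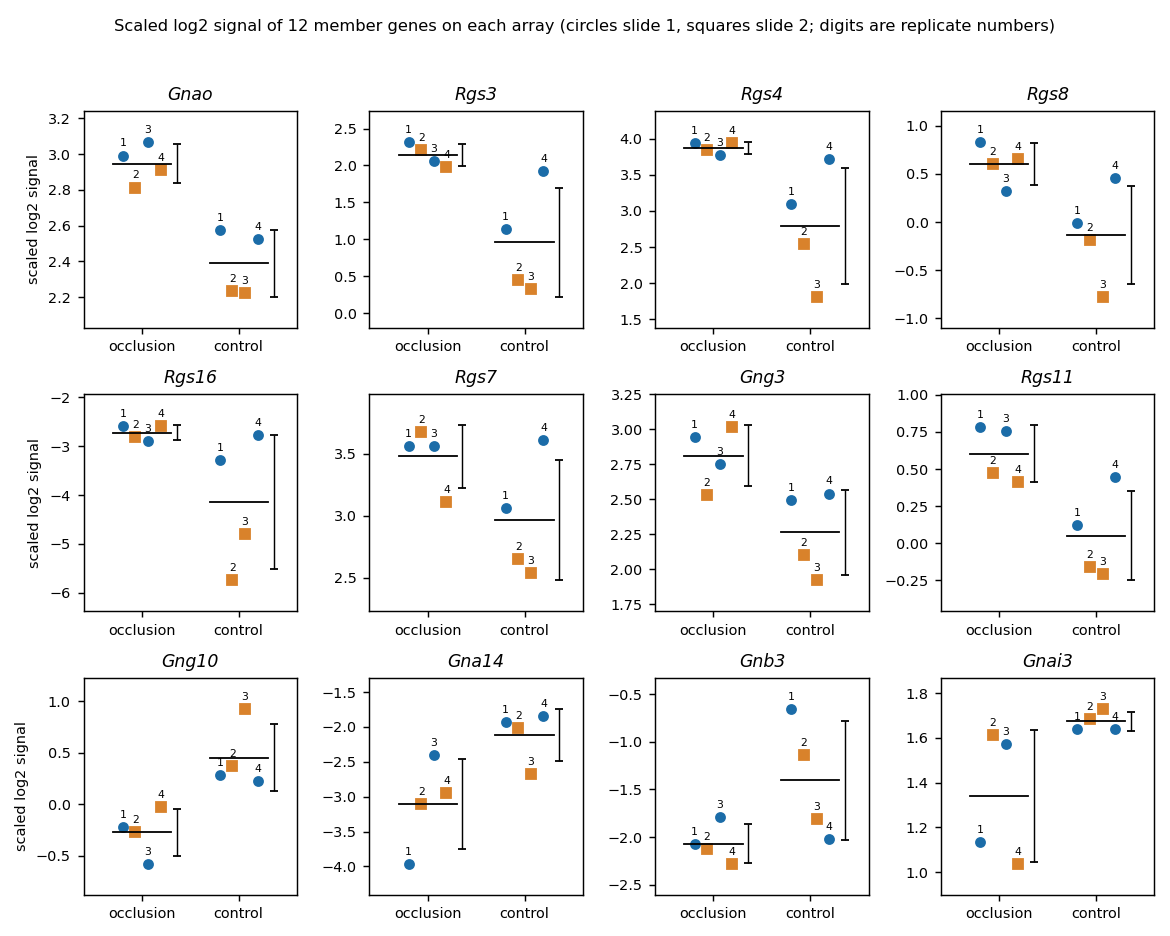
The y axes are scaled log2 signals of 12 genes, and the x axes are the groups, with 4 arrays each. Circles are slide 1, squares slide 2, digits the replicate numbers, horizontal lines the group means and vertical bars ± 1 SD. For Rgs3, Rgs4, Rgs8 and Rgs16 the 4 occlusion arrays lie close together, while the control arrays spread widely, with control 4 the highest of them.

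Apart from Gnb1, 2 beta subunit genes were higher and 2 lower. Gnb1, a common beta subunit of brain, had 5 probes, and the brightest was saturated on all 8 arrays, so that no difference is taken from it. Of the other 4, a pair of probes that overlap by 12 bases at chr5:172397876-172397983 (rn3) separated the groups. The brighter of the pair read 4.05, 3.95, 4.12 and 4.08 against 3.80, 3.58, 3.30 and 3.75, a difference of 0.44 (SE 0.13), and the dimmer differed by 0.49 (SE 0.14). The remaining Gnb1 probes, which lie upstream in the gene, differed by 0.16 (SE 0.16) and 0.06 (SE 0.15), and their groups overlapped. These last values were 0.0041 and -0.06 without occlusion 4.

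Gnb3, a beta subunit known from cone photoreceptors and the pineal gland, read -2.07, -2.13, -1.79 and -2.28 on the occlusion arrays. On control arrays 1 to 4 it read -0.65, -1.14, -1.81 and -2.02. Control 1 and 2 were the highest of the 8, and control 3 and 4 fell within the occlusion range. The difference was -0.66 (SE 0.29, limma adjusted p = 0.453), and it was -0.41 without control 1 and -0.15 without both control 1 and 2. Tph1, the first enzyme of serotonin synthesis and abundant in the pineal gland, read 1.45 and 0.78 on control 1 and 2 and -5.52 and -1.75 on control 3 and 4, against -4.48, -1.22, -4.52 and -1.69 on the occlusion arrays. Pdc, a beta-gamma binding protein of photoreceptors and pinealocytes, read -2.03 and -2.52 on control 1 and 2 and -7.72 to -4.76 on the other 6 arrays. Pdc was well above background on only 2 occlusion and 2 control arrays, and Tph1 was not so on control 3. The mean of 7 pineal genes, a list added after these values were seen, was -2.42 and -3.31 on control 1 and 2 and -5.75 to -3.90 elsewhere. Of the 7, 4 passed the filter, while Pde6c, Crx and Sag were well above background on 3, 2 and 2 arrays, and their values elsewhere are background. Aanat, which makes the precursor of melatonin and was well above background on all 8 arrays, did not show this order, with -1.80 and -3.10 on control 1 and 2, -3.19 and -2.21 on control 3 and 4, and -3.21 to -1.67 on the occlusion arrays. The part of pineal RNA in the Gnb3 difference was not tested.

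Gnb4 had 1 probe without overlap between the groups, the dimmer one shown above. It read -2.90, -3.06, -3.03 and -2.80 against -2.75, -2.52, -2.47 and -2.37, and differed by -0.42 (SE 0.12). The brighter Gnb4 probe differed by -0.19 (SE 0.17), with overlap. Gnb5, the partner of the R7 RGS proteins, differed by 0.17 (SE 0.18) and 0.22 (SE 0.12) on its 2 probes. Gnb2 was measured on 3 occlusion and 2 control arrays, since outlier spots were left out, and differed by 0.25 (SE 0.21).

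The gamma subunits held both the second-largest shift below 0 among the members and 1 of the 8 genes that were higher at an unadjusted p under 0.05. Gng10 read -0.22, -0.26, -0.58 and -0.03 on the occlusion arrays and 0.29, 0.37, 0.93 and 0.22 on the control arrays. Every occlusion array was below 0 and every control array above it. The difference was -0.72 (SE 0.19, limma unadjusted p = 0.00451, adjusted p = 0.403), a 1.65-fold lower signal, with -0.65 within slide 1 and -0.80 within slide 2. Gng10 is a broadly expressed subunit, and it was measured by 1 probe.

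Gng3, a neuronal gamma subunit, read 2.94, 2.53, 2.76 and 3.02 against 2.49, 2.10, 1.92 and 2.54. Occlusion 2 was just below control 4, and the other occlusion arrays were above every control array. The difference was 0.55 (SE 0.18, limma adjusted p = 0.403), with 0.33 within slide 1 and 0.76 within slide 2. Gng4, the member whose probe is most like that of Gng3, differed by 0.19 (SE 0.17).

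Gng12 read -0.05, 0.10, -0.34 and 0.02 against 0.36, 0.35, 0.25 and 0.00. Control 4 fell among the occlusion arrays, and the difference was -0.31 (SE 0.14, limma adjusted p = 0.453). Gng7, the gamma subunit paired with Golf alpha in the striatum, read -1.82, -1.99, -1.63 and -1.90 against -2.40, -3.08, -1.54 and -2.14. Control 3 was the highest and control 2 the lowest of the 8 arrays. Its difference of 0.45 (SE 0.29) was 0.19 without control 2 and 0.70 without control 3. Gng2 and Gng11 differed by 0.10 (SE 0.25) and 0.08 (SE 0.16). Gng5 differed by -0.09 (SE 0.12) on its brighter probe and by -0.32 (SE 0.13), without overlap, on its dimmer one.

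Gng8 was singled out after its values were seen, because its arrays spread the most among the gamma subunits. This subunit is known from olfactory and vomeronasal neurons and from the medial habenula, which borders the medial thalamus. It read 3.07, 3.93, 1.39 and 3.62 on the occlusion arrays and 3.92, 4.62, 2.21 and 1.85 on the control arrays. Occlusion 3, control 3 and control 4 were the low arrays, and the difference was -0.15 (SE 0.75). The mean of 9 habenula markers was lowest on the same arrays, at -3.27, -3.54 and -2.26, against -1.01 to 0.57 on the other 5. Not all 9 markers were well above background throughout. Pou4f1 was so on 3 occlusion and 2 control arrays, Chat on 3 and 3, and Chrna3, Gpr151 and Chrnb4 on 4 and 3. Some values in these means therefore lie at background. The list differed between the groups by 0.07 (exact two-sided permutation p = 0.943, n = 4 and 4).

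**Figure D3:**
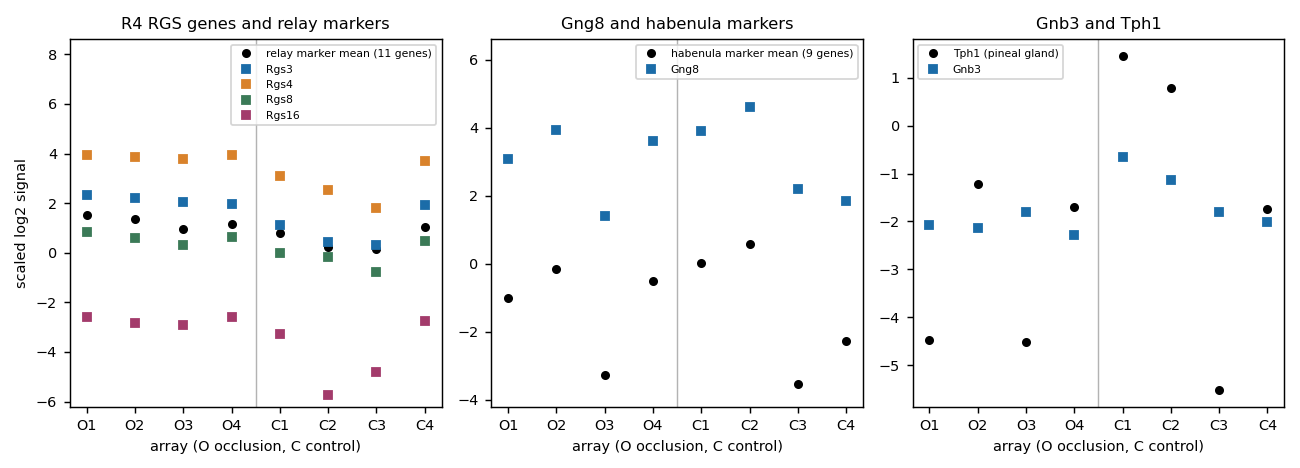
The y axes are scaled log2 signals on the 8 arrays named on the x axes, for member genes (squares) and for markers of other cells or tissue (black circles). Gng8 is low on occlusion 3, control 3 and control 4, as the habenula markers are, and Gnb3 and Tph1 are highest on control 1 and 2.

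The R4 RGS genes held the largest differences above 0. Of the 7 measured, 6 were higher on the occlusion arrays, beside 53% of all genes, and the median difference was 0.73. Rgs1, 1 of the 6, was at -0.09 with the normexp correction and -0.28 without control 1. At an unadjusted limma p under 0.05, 4 of the 7 were higher (Rgs3, Rgs4, Rgs8 and Rgs16), beside 5.91% of all genes. None passed after adjustment over all probes. Without control 1 and 2, or without control 2 and 3, 1 of the 7 had an unadjusted limma p under 0.05, beside 2.5% and 1.67% of all genes, with medians of 0.77 and 0.38. The second of these settings leaves no control array of slide 2.

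Rgs3 read 2.32, 2.21, 2.05 and 1.98 on the occlusion arrays and 1.14, 0.45, 0.32 and 1.92 on the control arrays. Control 4 was close below the occlusion arrays, and the other 3 control arrays were far below. The difference was 1.18 (SE 0.33, limma unadjusted p = 0.00661, adjusted p = 0.403), a 2.27-fold higher signal. It was 0.66 within slide 1 and 1.71 within slide 2, and 0.61 without control 2 and 3, the slide 2 controls.

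Rgs4 showed the same order of control arrays. Its brighter probe read 3.94, 3.84, 3.77 and 3.94 against 3.09, 2.55, 1.81 and 3.72, and differed by 1.08 (SE 0.36, limma adjusted p = 0.403), which is 2.12-fold. Within slide 1 the difference was 0.45 and within slide 2 it was 1.71, and without control 2 and 3 it was 0.47. The other Rgs4 probe, shown above, read 0.56, 0.56, 0.56 and 0.66 against -0.24, -1.09, -1.06 and 0.48, and differed by 1.06 (SE 0.33). On both probes every occlusion array was above every control array, with an SD of 0.08 and 0.05 on the occlusion arrays against 0.81 and 0.75 on the control arrays.

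Rgs8 read 0.84, 0.61, 0.32 and 0.65 against -0.01, -0.19, -0.78 and 0.45. Control 4 fell within the occlusion range, and the other control arrays were below it. The difference was 0.73 (SE 0.25, limma adjusted p = 0.403), with 0.36 within slide 1 and 1.11 within slide 2. Rgs16 read -2.59, -2.81, -2.90 and -2.60 against -3.29, -5.74, -4.80 and -2.76. It was well above background on 4 occlusion and 3 control arrays, and control 2 and 3 were the low ones. The difference was 1.42 (SE 0.59, limma adjusted p = 0.434), with 0.28 within slide 1 and 2.57 within slide 2. It was 0.89 without control 2, 0.30 without control 2 and 3, and 0.72 with the normexp background correction.

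Relay neurons, which carry thalamic output to the cortex, were followed with 11 marker genes. All 11 were higher on the occlusion arrays, beside 53% of all genes. Of these, Calb2 was saturated on 8 arrays, Slc17a6 on 6 and Prkcd on 4, which limits their differences. Without them 8 of 8 were higher, and the list differed by 0.78 (exact two-sided permutation p = 0.0571, n = 4 and 4). The mean of all 11 was 1.53, 1.35, 0.97 and 1.16 on the occlusion arrays and 0.79, 0.25, 0.15 and 1.03 on the control arrays. Control 2 and 3 were the lowest and control 4 the highest control array, as for Rgs3, Rgs8 and both Rgs4 probes. The full list differed by 0.70 (exact two-sided permutation p = 0.0571, adjusted p = 0.557 over 13 lists, smallest possible p 0.0286), with 0.34 within slide 1 and 1.06 within slide 2. Whether the amount of relay tissue in a sample contributed to the R4 differences was not tested.

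**Figure D4:**
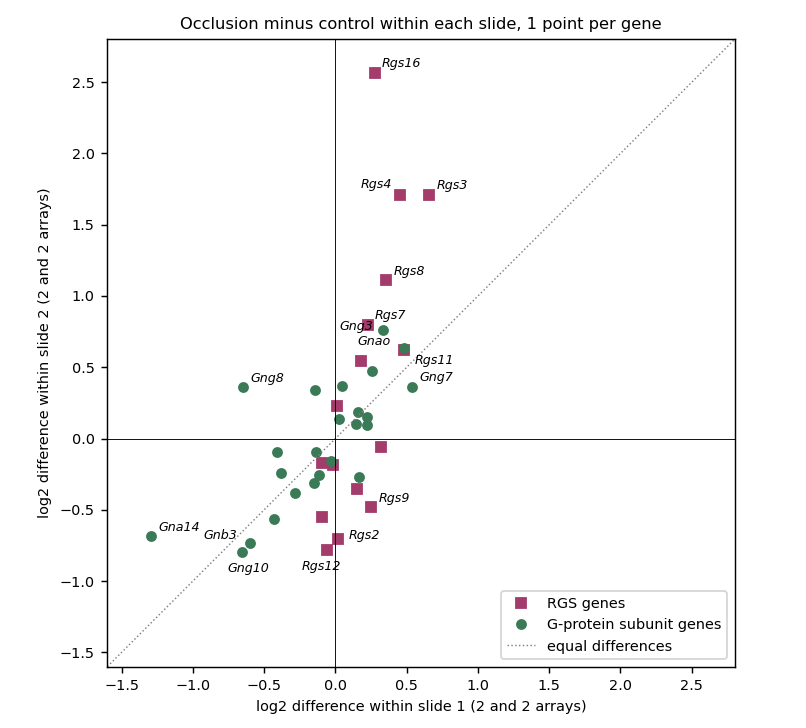
The x axis is the log2 difference within slide 1 and the y axis that within slide 2, each from 2 occlusion and 2 control arrays, for the genes measured on both slides and not saturated throughout. The dotted line marks equal differences. Rgs3, Rgs4, Rgs8 and Rgs16 lie well above it, while Gnao and Gng10 lie close to it.

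The other R4 genes did not share these values. Rgs2, which acts on Gq and is an activity-induced gene, read 2.04, 2.23, 2.88 and 1.72 against 2.34, 2.30, 3.06 and 2.55. The groups overlapped, and the difference of -0.34 (SE 0.27) was 0.02 within slide 1 and -0.70 within slide 2, -0.18 without control 3 and -0.57 without occlusion 3. Rgs5, a marker of pericytes, read -0.43, -0.39, -0.23 and -0.24 against -0.38, -0.48, -0.60 and -0.30. It differed by 0.12 (SE 0.11), and by 0.06 without control 3, while the mean of 10 pericyte and smooth muscle markers differed by 0.10. Rgs1 differed by 0.13 (SE 0.51), and Rgs18 was well above background on 1 array only.

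Of the R7 genes, 1 of 4, Rgs11, was higher at an unadjusted limma p under 0.05, beside 5.91% of all genes. Rgs11 read 0.78, 0.47, 0.75 and 0.41 against 0.12, -0.16, -0.20 and 0.45, with control 4 just above the lowest occlusion array. The difference was 0.55 (SE 0.17, limma unadjusted p = 0.0122, adjusted p = 0.403), with 0.48 and 0.62 within the slides, while a dimmer Rgs11 probe gave 0.20 (SE 0.32) and 0.0042 without control 3. Rgs7 read 3.56, 3.68, 3.56 and 3.11 against 3.06, 2.66, 2.54 and 3.61. Control 4 was again the high control array, and the difference was 0.51 (SE 0.25, limma unadjusted p = 0.0706, adjusted p = 0.477). It was 0.23 within slide 1 and 0.80 within slide 2, and 0.14 without control 2 and 3. Rgs9, known from striatal projection neurons and photoreceptors, read 0.09, -0.02, 0.98 and 0.34 against 0.07, 0.54, 0.75 and 0.49. Its difference of -0.12 (SE 0.24) was 0.25 within slide 1 and -0.48 within slide 2, and 0.0054 without occlusion 2. The mean of 10 striatal markers differed by -0.29 (exact permutation p = 0.343, n = 4 and 4). The probes of Rgs6 gave -0.10 (SE 0.14) and 0.23 (SE 0.36), and the latter was -0.04 without control 4.

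All 3 R12 genes, which act on Gi and Go, were lower on the occlusion arrays, with a median of -0.32 and none at an unadjusted p under 0.05. Of all genes, 53% were higher. Rgs10 read 0.57, 0.35, 0.67 and 0.27 against 0.79, 0.57, 1.17 and 0.63. Control 3 was the highest of the 8 arrays, and the difference of -0.32 (SE 0.16) became -0.20 without it. Rgs12 read -4.04, -3.84, -3.52 and -3.77 against -3.73, -3.39, -2.65 and -3.71. Its difference of -0.42 (SE 0.25) was -0.06 within slide 1 and -0.78 within slide 2, -0.18 without control 3, and -0.26 with the normexp background correction. Rgs14 differed by -0.13 (SE 0.37), which turned to 0.11 without control 3 and 0.05 without occlusion 2.

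Rgs17, of the RZ subfamily that acts on Gz and Gi, read 0.93, 0.99, 1.17 and 1.07 on the occlusion arrays. On the control arrays it read 0.87, 0.89, 0.08 and 0.86. The groups did not overlap, but 3 control arrays lay just below the occlusion arrays and control 3 far below. The difference of 0.36 (SE 0.19, limma adjusted p = 0.507) became 0.16 without control 3. Rgs19 differed by -0.10 (SE 0.13) and -0.24 (SE 0.12) on its 2 probes.

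**Figure D5:**
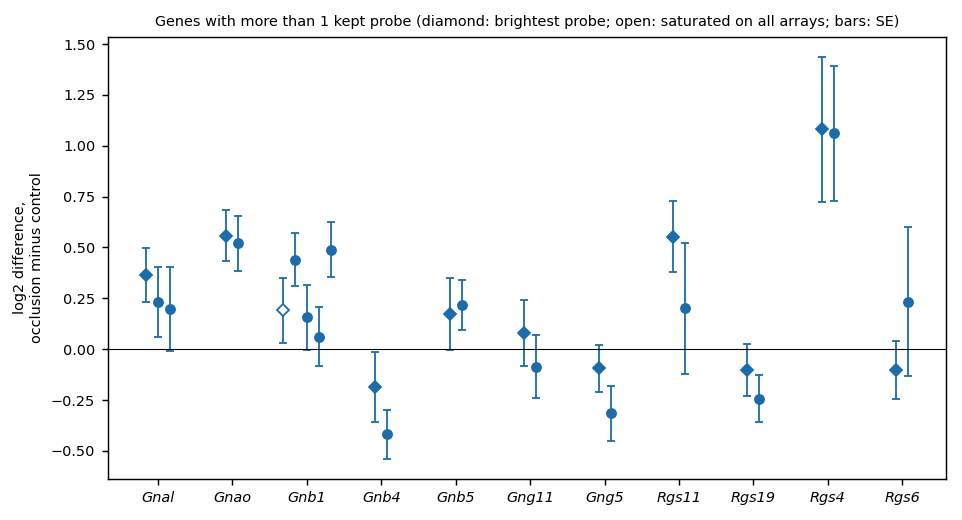
The y axis is the log2 difference, occlusion minus control, for each kept probe of the 11 genes that had more than 1, with bars of 1 moderated SE. Diamonds are the brightest probes and the open diamond is saturated on all arrays. Both probes of Gnao and of Rgs4 read alike, while Gng11 and Rgs6 have probes on either side of 0.

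Other genes of G-protein signalling were taken from a list of receptor kinases, arrestins, activators and chaperones, RGS partners, phospholipase C beta, GIRK channels and adenylyl cyclases. Of 43 on the array 40 were kept, of which 24 were higher and 16 lower, with a median difference of 0.14 and none past the limma test after adjustment. At an unadjusted limma p under 0.05, 5 were higher (12.5%) and 0 lower, beside 5.91% and 4.97% of all genes. Adcy1, 1 of the 5, passed the filter only through the occlusion arrays, and without it 4 of 39 were higher (10.3%). All 5 genes listed under RGS partners were higher, beside 53% of all genes, with a median of 0.49, and 3 of them had an unadjusted limma p under 0.05. These were Ppp1r9b (spinophilin, which brings RGS proteins to receptors), Gpr158 (an orphan receptor that binds RGS7) and Rgs7bp (which anchors R7 RGS proteins at the membrane). Axin1 and Axin2, also on that list, are not partners of this kind, and differed by 0.13 (SE 0.10) and 0.27 (SE 0.17).

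Ppp1r9b read 4.77, 4.64, 4.57 and 4.65 against 4.04, 3.80, 4.23 and 4.45. The groups did not overlap, and the difference was 0.53 (SE 0.15, limma adjusted p = 0.403). Kcnj9, a GIRK channel subunit that beta-gamma opens, read 0.71, 0.75, 0.86 and 0.42 against -0.26, -0.995, -1.34 and 0.37. Control 4 was just below the lowest occlusion array and control 2 and 3 were far below, as for Rgs3 and Rgs4. The difference was 1.24 (SE 0.35, limma adjusted p = 0.403), with 0.72 within slide 1 and 1.75 within slide 2. The other GIRK subunits Kcnj3, Kcnj6 and Kcnj5 differed by 0.30, 0.08 and -0.35.

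Adcy1, the calmodulin-activated adenylyl cyclase, was well above background on 4 occlusion arrays and on 0 control arrays, so that its difference is tied to the filter and is given as a description. It read -4.25, -4.46, -4.83 and -5.15 against -5.12, -5.45, -5.93 and -4.92, and the groups overlapped. The mean was at least 1.53-fold higher on the occlusion arrays (limma adjusted p = 0.426), with each control array set at the lowest signal well above background there, or at the probe's value where that was higher. Gpr158 and Rgs7bp differed by 0.49 (SE 0.20) and 0.97 (SE 0.42), and Rgs7bp by 0.11 within slide 1 and 1.84 within slide 2. At the other end, Gpsm1, which binds inactive Gi alpha, differed by -0.30 (SE 0.16), Plcb3 by -0.58 (SE 0.33) and Kcnj5 by -0.35 (SE 0.21). In each of these 3 the groups overlapped.

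Several members neighbour each other in the genome. The distances here are between their array probes on rn3, while the coding genes between were counted in RefSeq (build GRCr8). The probes of Rgs8 and Rgs16 lie 42.3 kb apart on chromosome 13 with 0 coding genes between them, and the genes differed by 0.73 and 1.42. Rgs4 and Rgs5 lie 53.6 kb apart on the same chromosome, also with 0 coding genes between, and differed by 1.08 and 0.12. Gna11 and Gna15 lie 23.0 kb apart and differed by 0.21 and -0.05, and Gna14 and Gnaq lie 224 kb apart with 1 coding gene between and differed by -0.99 and -0.25.

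Promoters of 4 of these genes are shown, since Rgs4, Rgs8, Rgs16 and Gnao had some of the largest differences above 0, and were searched for the cyclic AMP response element, a DNA word bound by CREB. Each covers 250 bases before to 50 after the start site, taken from RefSeq on GRCr8: chr13:84475835-84476134 (minus strand), chr13:68366648-68366947 and chr13:68437870-68438169 (plus strand) and chr19:11198388-11198687 (minus strand; Gnao is Gnao1 there). Capitals mark the short word TGACG or its complement CGTCA, and the full palindrome TGACGTCA, which holds both.
Rgs4: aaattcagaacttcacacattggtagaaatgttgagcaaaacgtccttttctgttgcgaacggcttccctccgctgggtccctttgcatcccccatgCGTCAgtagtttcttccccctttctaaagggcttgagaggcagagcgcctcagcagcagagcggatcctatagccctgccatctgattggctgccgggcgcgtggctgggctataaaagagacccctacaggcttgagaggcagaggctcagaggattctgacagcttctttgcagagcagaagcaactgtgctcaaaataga
Rgs8: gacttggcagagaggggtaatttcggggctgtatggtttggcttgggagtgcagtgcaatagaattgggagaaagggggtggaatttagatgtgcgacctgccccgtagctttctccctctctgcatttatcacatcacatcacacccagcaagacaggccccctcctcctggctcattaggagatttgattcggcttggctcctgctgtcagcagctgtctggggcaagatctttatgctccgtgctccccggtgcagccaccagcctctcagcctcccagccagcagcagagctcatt
Rgs16: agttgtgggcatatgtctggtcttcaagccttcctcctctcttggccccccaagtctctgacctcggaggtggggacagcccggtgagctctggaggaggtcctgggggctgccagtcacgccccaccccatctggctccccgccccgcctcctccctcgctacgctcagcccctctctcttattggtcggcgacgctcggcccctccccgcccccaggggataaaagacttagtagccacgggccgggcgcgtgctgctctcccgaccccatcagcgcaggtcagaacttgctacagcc
Gnao1: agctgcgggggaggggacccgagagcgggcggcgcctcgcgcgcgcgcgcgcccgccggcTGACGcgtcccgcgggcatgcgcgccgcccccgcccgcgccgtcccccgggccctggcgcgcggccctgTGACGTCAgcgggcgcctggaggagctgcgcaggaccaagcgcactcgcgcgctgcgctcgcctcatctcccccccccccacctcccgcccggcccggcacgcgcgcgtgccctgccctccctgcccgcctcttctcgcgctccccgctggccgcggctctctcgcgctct
The Rgs4 window held 1 short word, the Rgs8 and Rgs16 windows 0, and the Gnao1 window 3, of which a pair form 1 full palindrome. Of the 42 members 36 matched a RefSeq promoter, and 11 of these (30.6%) held the short word, beside 22.0% of all 27457 promoters of that length. The full palindrome was in 1 of the 36, and in 1.91% of all promoters. A match describes these letters only, and the base composition of the windows differed, with 82.3% G and C in Gnao1 against 52.7% in Rgs4.

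The remaining marker lists were set beside the members to describe what else the samples held. The mean of 12 markers of reticular and other GABA neurons differed by -0.94 (exact two-sided permutation p = 0.257, n = 4 and 4), with 0.01 within slide 1 and -1.89 within slide 2. Of the 12, Dlx5 and Isl1 were well above background on 3 occlusion and 2 control arrays, and Six3 on 2 and 2. Some values in the GABA neuron means, here and below, therefore lie at background. Oligodendrocyte markers differed by -0.47 (exact permutation p = 0.0857) and astrocyte markers by -0.20 (p = 0.171). Lists for hippocampus and cortex, hypothalamus, microglia, endothelium, choroid plexus and blood differed by 0.28, 0.33, -0.05, 0.09, -0.14 and 0.08. The first of these holds Prox1, well above background on the occlusion arrays only, and was 0.02 without it (exact permutation p = 0.943, n = 4 and 4). None of the 13 full lists passed after adjustment. Control 3, the array that stood apart for Gnai1, Rgs10, Rgs12 and Rgs17, had the highest GABA neuron mean of the 8, at 0.98 against -2.51 to -0.03 on the others, and its part in those differences was not tested.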

How the data were processed

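The 8 single-channel arrays, 1 per rat by the labels' account of 4 animals per group, entered the analysis. Per the file headers, the authors scanned them with Agilent Feature Extraction 9.5.1.1, which wrote a linear processed intensity for each spot, background-subtracted and detrended, with a surrogate value for dim spots. The intensity is bounded at the bright end by saturation. From it, log2 values minus each array's 75th percentile over non-control spots were computed, outlier spots were left out, and spots of a probe were averaged. Probes well above background on at least 4 arrays, with at least 2 values per group, were kept, and limma 3.58.1 in R 4.3.3 was fitted to all of them, with a threshold of 0.05 on the Benjamini-Hochberg adjusted p. The brightest kept probe stood for its gene. Marker lists were compared as array means by exact two-sided permutation (70 splits). Precision is limited by the 4 arrays per group. The slide was tested as a block. The script was tested on simulated data.

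Values were printed for kept members at both ends of the moderated t (10 highest, 10 lowest), for a preset set (Rgs2, Rgs4, Rgs5, Rgs9, Rgs16, Gnas, Gnal, Gnao, Gnaq, Gnai1, Gnb1, Gng7) and for the 3 highest and 3 lowest other signalling genes. Members, lists and rules were chosen with earlier results of these data known. A class of the other signalling genes is not reported here. Alternatives covered background correction, scaling, filter, variance model, slide, replicate number, probe averaging, the deposited value table and leaving out arrays.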

Additional observations from a re-analysis of the deposited data

Results flagged for a closer look

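The spread within each group of 4 arrays was searched for single arrays far from the rest, in 52 groups of the genes whose values are printed. Chance alone gives about 1 such array in 20 groups, and 2 were found. Rgs17 on control 3 read 0.078, while the other control arrays read 0.865 to 0.891. Gnai1 on control 3 read -0.427, while the other control arrays read -1.65 to -1.49. The same array was thus the one apart for both genes, low for the first and high for the second.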

How the results depend on the processing

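No member and none of the other signalling genes passed the adjusted threshold under any setting run, and 0 of the marker lists did. The median difference over the members was 0.09 and became -0.0505 when probes had to be well above background on all 8 arrays, which leaves 39 of the genes. It was -0.0036 with the normexp background correction and 0.00023 without control 1 and 2. The median over the other signalling genes was 0.14 and became 0.227 on slide 2 alone. The 8 higher genes at an unadjusted limma p under 0.05 became 4 on slide 1 alone, beside 2.93% of all genes there and 5.91% in the main setting. They became 3 without control 1 and 2 (2.5% of all genes) and also without control 2 and 3 (1.67%), settings chosen after seeing the data. Leaving out control 2 and 3 removes every control array of slide 2, so that setting cannot tell group from slide. The 2 lower genes became 4 with the filter on all 8 arrays, 5 with a trended robust variance and 1 on slide 1 alone. Of all genes, 5.63%, 5.41% and 2.25% were lower under these settings, and 4.97% in the main one. With the replicate number as a block, 4 were lower and 7 higher at an unadjusted limma p under 0.05, and 0 passed after adjustment. Of all genes, 4.61% were lower and 5.46% higher with that block. Deviations of same-numbered arrays correlated at 0.355, 0.514, -0.0715 and -0.293, and 2 of the 4 occlusion arrays correlated best with their own number, so the numbers were not taken as pairs. Each occlusion array correlated best with a control array of its own slide (control 1, 2, 4 and 2 for occlusion 1 to 4). With the slide as a block, 9 members were higher and 3 lower at an unadjusted limma p under 0.05. Over all genes these shares were 8.07% and 5.61%. The smallest limma adjusted p of a member was then 0.242.

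Leaving out 1 array at a time gave 6 to 9 higher and 2 to 4 lower genes. Over all genes it gave 3.45% to 8.55% higher and 3.31% to 6.78% lower at an unadjusted limma p under 0.05. It also gave member medians of 0.04 to 0.15, medians of the other signalling genes of 0.10 to 0.18, and 0 to 0 adjusted calls. It turned the sign for Gnas (-0.0367 to 0.281), Rgs9 (-0.326 to 0.00535), Gng8 (-0.578 to 0.391), single probes of Gnb1 (-0.0567 to 0.144), Gng11 (-0.175 to 0.0149) and Rgs6 (-0.0387 to 0.428). It did so too for the lists of blood (-0.0834 to 0.303), choroid plexus (-0.503 to 0.0671), habenula (-0.677 to 0.746), hippocampus and cortex (-0.11 to 0.524), hypothalamus (-0.515 to 1.04) and microglia (-0.108 to 0.028).

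Members near 0 turned too, namely Rgs1, Rgs6, Rgs14, Gna15, Gnai2, Gng2 and Gng11, whose differences were -0.134 to 0.133. Each took the other sign when a single array was left out, among them Rgs1 (-0.281 without control 1) and Gng2 (-0.136 without control 2). Rgs1 turned without occlusion 2 as well (-0.166). Rgs14 turned without occlusion 2 (0.0473) or control 3 (0.11), and Gna15 without occlusion 4 (0.0422) or control 3 (0.0979). Slide 1 alone turned the sign for Gna15 (0.168), Gng2 (-0.14), the brighter Rgs6 probe (0.149), Rgs2 (0.0186), Rgs9 (0.253), Gnb1 probes (-0.00411 and -0.129), and the lists of choroid plexus (0.107), habenula (-1.02), hippocampus and cortex (-0.303), microglia (0.0834) and GABA neurons (0.0098). Slide 2 alone did so for the saturated Gnb1 probe (-0.0378), Rgs1 (-0.0565), Gng8 (0.36) and the dimmer Rgs6 probe (-0.668). Without control 1 and 2, Rgs1 became -0.528, Gng2 -0.244, the brighter Rgs6 probe 0.00148, Gng8 0.974 and the dimmest Gnal probe -0.0746. Without control 2 and 3, Gng2 became -0.214, Gna15 0.048, Gng11 -0.0476, the brighter Rgs6 probe 0.0878, Rgs9 0.0647, Gng8 0.12, a Gnb1 probe -0.0099 and the dimmer Rgs11 probe -0.26. Averaging the probes of a gene turned Gng11 (-0.00365) and Rgs6 (0.0658). Normexp turned Rgs1 (-0.0913) and the habenula (-0.10) and hippocampus and cortex (-0.0517) lists. The causes were not tested. With 4 arrays per group, small differences cannot be resolved, and signals of dim probes such as Rgs16 rest on values near background.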

Other observations

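Over the members, the first principal component of the 8 arrays held 47.8% of the variance. Control 2 and control 3 lay at 3.15 and 3.16 on it, control 1 at 0.71, and control 4 at -0.94, beside -2.02 to -1.17 for the occlusion arrays. On this component the control arrays spread more widely than the occlusion arrays, and control 4 lay nearest to them.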
